A study of Mus musculus with 3 samples.

Results

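The H3K36me3 peaks that lie in short protein-coding genes were 243 of the 1806 peaks that the authors called for this mark in mouse intestinal cells. A peak was counted when its midpoint fell in the span of a protein-coding gene of the RefSeq annotation of GRCm38, and when the longest gene holding that midpoint spanned less than 30 kb. The cells came from the intestine of 6-week-old C57BL/6 mice labelled setd2f/f, that is, with floxed Setd2 alleles. The labels name no Cre driver and do not say how many animals were used. The study profiled 1 chromatin library with an antibody to H3K36me3, 1 with an antibody to SETD2 and 1 input DNA library without antibody, all from the same genotype and age, so no library lacking SETD2 was analysed here and nothing could be compared between animals. Both sets of peaks came from a single ChIP each, with the input as background. For every peak the lists hold a position and a caller's score but no reads. The depth is therefore unknown, and where no peak was called the mark may still be present.

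SETD2 travels with elongating RNA polymerase II and places the third methyl group on lysine 36 of histone H3 behind it. The mark is therefore a textbook feature of transcribed gene bodies, and is usually broad and stronger towards the 3′ end. Many genes of basic cell maintenance are short.

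The 243 peaks lay in 239 host genes, and no midpoint lay in a second protein-coding gene. Promoter sequences from RefSeq (GRCm38.p6, 250 bases before to 50 after an annotated start) were at hand for 198 of the 239 hosts. They are shown first for 5 hosts whose peak lay at or just beyond that window. Mt1 encodes the metal-binding protein metallothionein 1 and held the highest-scoring peak. Nr0b1 encodes the nuclear receptor corepressor DAX1, Dlx2 a homeobox transcription factor, Rack1 a scaffold protein of the ribosome, and Sco1 a copper chaperone of cytochrome oxidase assembly. Each sequence reads 5′ to 3′ along the gene, and capitals mark every match, on either strand, to the motifs named next. TATAAA is the TATA box, GGGCGG the GC box, CCAAT the box bound by NF-Y and CCGGAAG the ETS-type motif. AAGATGG is a YY1-type motif and TGACGTCA the cyclic AMP response element. TGCNCNC is a loose form of the metal response element core, so it also marks sites that are not such cores. Matches can overlap.
Mt1 (chr8:94178839-94179138, plus strand): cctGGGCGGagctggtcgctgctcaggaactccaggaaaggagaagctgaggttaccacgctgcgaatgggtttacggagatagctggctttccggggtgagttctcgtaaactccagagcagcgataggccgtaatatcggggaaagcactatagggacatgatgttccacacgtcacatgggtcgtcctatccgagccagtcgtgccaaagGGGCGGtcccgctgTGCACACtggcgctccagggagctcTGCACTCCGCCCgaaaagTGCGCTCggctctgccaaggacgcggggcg
Nr0b1 (chrX:86191525-86191824, plus strand): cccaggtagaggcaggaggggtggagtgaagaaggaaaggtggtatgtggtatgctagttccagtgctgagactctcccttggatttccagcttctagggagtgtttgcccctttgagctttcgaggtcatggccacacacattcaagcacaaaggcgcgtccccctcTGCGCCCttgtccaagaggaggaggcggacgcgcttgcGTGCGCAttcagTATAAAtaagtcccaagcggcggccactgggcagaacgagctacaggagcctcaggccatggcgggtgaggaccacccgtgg
Dlx2 (chr2:71546705-71547004, minus strand): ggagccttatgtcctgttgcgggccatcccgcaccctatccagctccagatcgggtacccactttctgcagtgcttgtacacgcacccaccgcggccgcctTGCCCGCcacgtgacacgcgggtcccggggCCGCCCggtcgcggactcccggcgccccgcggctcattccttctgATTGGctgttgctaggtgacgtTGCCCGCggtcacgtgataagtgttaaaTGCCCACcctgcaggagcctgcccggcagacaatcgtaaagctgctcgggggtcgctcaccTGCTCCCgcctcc
Rack1 (chr11:48800110-48800409, plus strand): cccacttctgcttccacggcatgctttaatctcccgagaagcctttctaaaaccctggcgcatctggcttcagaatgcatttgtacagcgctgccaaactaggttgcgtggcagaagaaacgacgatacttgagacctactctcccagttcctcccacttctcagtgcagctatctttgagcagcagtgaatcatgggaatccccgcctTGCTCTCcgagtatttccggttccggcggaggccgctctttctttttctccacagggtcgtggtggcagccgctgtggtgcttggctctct
Sco1 (chr11:67052420-67052719, plus strand): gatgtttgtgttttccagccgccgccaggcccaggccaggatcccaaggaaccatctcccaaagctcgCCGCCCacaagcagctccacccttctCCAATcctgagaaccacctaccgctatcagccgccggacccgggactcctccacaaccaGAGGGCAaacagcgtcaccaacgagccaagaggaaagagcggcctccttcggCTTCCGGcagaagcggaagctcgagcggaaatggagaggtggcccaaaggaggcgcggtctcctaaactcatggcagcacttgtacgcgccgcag

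The peak of Nr0b1 (chromosome X, 86191634 to 86191928, score 56.1) covered 191 bases of its window, with its midpoint 5 bp from the annotated start of the gene. That of Dlx2 covered all 300 bases of the window, that of Sco1 248 and that of Rack1 163. The Mt1 peak began downstream of the printed window and ran through most of the gene body.

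The next sequences are shown because 1 motif set the short hosts apart from other hosts, as described further down. They are 31-base stretches around CCGGAAG (in capitals) from the promoters of the 10 hosts with the highest peak scores among those that hold it. Each is printed on the strand that spells the motif and is the copy nearest to the annotated start.
Hjurp (chr1:88277603-88277633, minus strand): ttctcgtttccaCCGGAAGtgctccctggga
Zfp36 (chr7:28379302-28379332, minus strand): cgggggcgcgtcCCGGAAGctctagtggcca
Phospho2 (chr2:69789556-69789586, plus strand): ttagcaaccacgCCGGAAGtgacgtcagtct
Exosc3 (chr4:45320600-45320630, minus strand): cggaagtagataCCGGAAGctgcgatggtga
Tstd2 (chr4:46138693-46138723, minus strand): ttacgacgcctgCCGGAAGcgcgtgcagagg
Ccdc181 (chr1:164275586-164275616, plus strand): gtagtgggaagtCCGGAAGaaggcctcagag
Zfp184 (chr13:21945038-21945068, plus strand): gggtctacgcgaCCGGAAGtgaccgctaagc
Emg1 (chr6:124712204-124712234, minus strand): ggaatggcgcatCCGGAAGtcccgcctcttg
Mars1 (chr10:127311797-127311827, plus strand): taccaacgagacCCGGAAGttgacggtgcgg
Rmnd1 (chr10:4432482-4432512, plus strand): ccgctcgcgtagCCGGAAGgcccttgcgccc

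H3K36me3 peaks fell in short genes 2.35 times as often as evenly placed positions would (95% interval of the ratio 2.08 to 2.64). The 243 peaks made up 13.5% of the list (exact binomial interval 11.9 to 15.1%). Midpoints spread evenly along each chromosome would give 104 peaks (5.73%), because ground assigned to short genes covers 146 Mb. The ratio was 2.04 (1.87 to 2.23) for genes of 30 to 100 kb, with 399 peaks, and 0.874 (0.797 to 0.956) for genes over 100 kb, with 379 peaks. Outside protein-coding genes it was 0.731, with 785 peaks. Intervals count peaks as independent and cover counting error only.

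The number in short genes dropped when the peaks were moved along the chromosome. Moving every peak of the list by 1 kb left 227 or 235 in short genes (to the right or left), and moving them by 5 kb left 194 or 195. After a move of 10 kb 187 or 188 remained, after 100 kb 160 or 174, and after 1000 kb 135 or 130, still above the 104 of even placement. Gene density was counted around the peaks as called, not at the moved positions. The peaks in short genes had a median of 18 protein-coding genes within 500 kb, against 13 for peaks in genes of 30 to 100 kb, 6 in genes over 100 kb and 6 outside genes. The median was 18 for the 239 hosts and 21 for all short genes. The part of gene density in the excess was not tested.

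Few short genes held a peak. The number of peaks per base was highest in the shortest short genes, though the intervals within the short class overlapped. The 239 hosts were 1.67% of the 14286 short protein-coding genes (exact interval 1.47 to 1.90%), and this share is the background against which the gene groups below are read. Hosts had a median span of 16.6 kb (interquartile range 9.43 to 24.6 kb), against 8.54 kb for the whole class. Of the 4977 genes under 5 kb, 28 (0.563%) held a peak. The share was 1.25% of genes of 5 to 10 kb, 2.07% of genes of 10 to 20 kb and 3.73% of genes of 20 to 30 kb. Per length of gene the highest rate was in the shortest genes and the lowest in the longest. Genes under 5 kb held 2.50 peaks per Mb of span (exact Poisson interval 1.66 to 3.61) and those of 5 to 10 kb held 1.75 (1.23 to 2.41). The rate was 1.48 (1.18 to 1.83) at 10 to 20 kb, 1.51 (1.22 to 1.85) at 20 to 30 kb, 1.45 (1.31 to 1.60) at 30 to 100 kb and 0.610 (0.550 to 0.675) over 100 kb. The intervals of the 5 bins up to 100 kb overlapped each other, except that the bin under 5 kb lay wholly above that of 30 to 100 kb. All 5 lay above that of the longest genes.

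**Figure D1:**
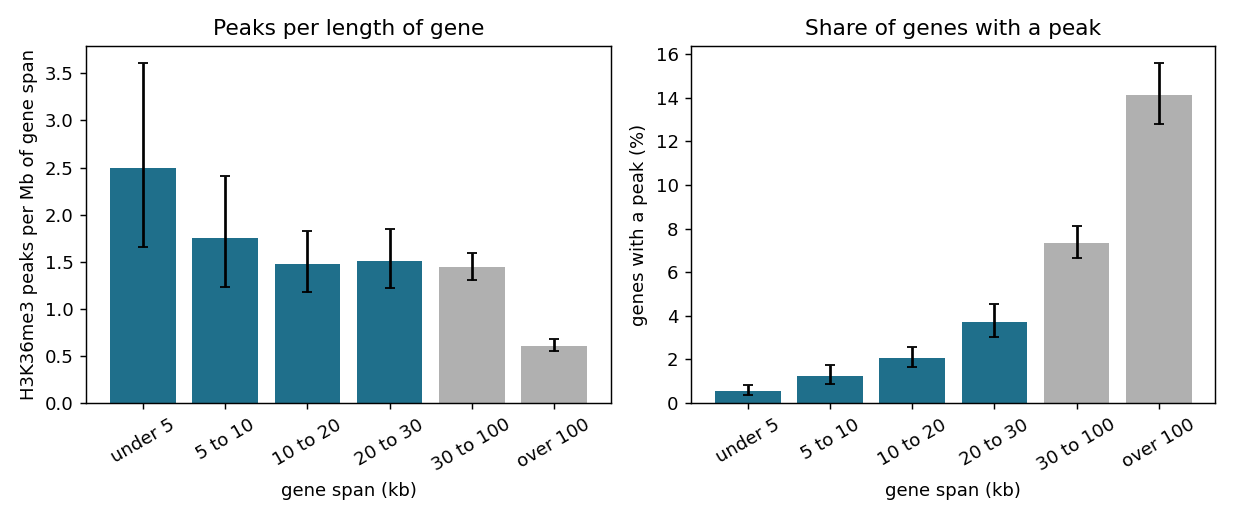
H3K36me3 peaks per Mb of gene span (left) and share of protein-coding genes with a peak (right) by gene span in kb. Blue bars are genes under 30 kb, grey bars longer genes, and error bars are exact 95% intervals. The rate per Mb runs from 2.50 in the shortest genes to 0.610 in the longest, while the share of genes with a peak runs from 0.563% to 14.1%.

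Peaks in short genes scored above the median of the list more often than those elsewhere. Their median score was 34.7 (interquartile range 32.2 to 38.4), against 33.3 in genes of 30 to 100 kb, 33.5 in genes over 100 kb and 33.5 outside genes. Of the 243 peaks, 148 (60.9%) scored above the median of the whole list, 33.6. This was 14.0 percentage points more than in genes of 30 to 100 kb (46.9% of 399; 95% interval of the difference 6.19 to 21.9; Fisher's exact test, two-sided, adjusted p = 0.00108). The difference was 12.1 points against genes over 100 kb (4.16 to 20.03; Fisher's exact test, adjusted p = 0.00389) and 12.5 points against peaks in no gene (5.44 to 19.6; adjusted p = 0.00108). Adjustment was over these 3 comparisons, and the tests describe peaks of 1 library, not animals. When the upper quartile of scores was taken in place of the median, the differences from genes over 100 kb (7.27 points, adjusted p = 0.077) and from peaks in no gene (5.93 points, adjusted p = 0.081) did not pass in the exact test.

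Peaks in short genes were more often wide than those in genes over 100 kb, while no difference was detected from genes of 30 to 100 kb. Their widths had a median of 616 bp (interquartile range 534 to 687 bp), and 56.0% were wider than the list's median of 602 bp. The share was 57.1% in genes of 30 to 100 kb, a difference of -1.18 points with an interval of -9.08 to 6.73 (Fisher's exact test, adjusted p = 0.806). In genes over 100 kb it was 44.1% (11.9 points lower; interval of the difference 3.91 to 19.9; exact test, adjusted p = 0.0121) and in no gene 46.8% (9.22 points lower; 2.06 to 16.4; adjusted p = 0.0189). Neither difference passed the exact test at the upper quartile of width (6.43 points, adjusted p = 0.191, and 2.80 points, adjusted p = 0.394). In each of 4 bands of width the median score was highest in short genes. Among peaks under 526 bp the median score was 35.1 in short genes against 33.9, 33.3 and 33.5 in the other classes, and among peaks of 675 bp or more it was 35.5 against 34.1, 34.8 and 34.4.

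**Figure D2:**
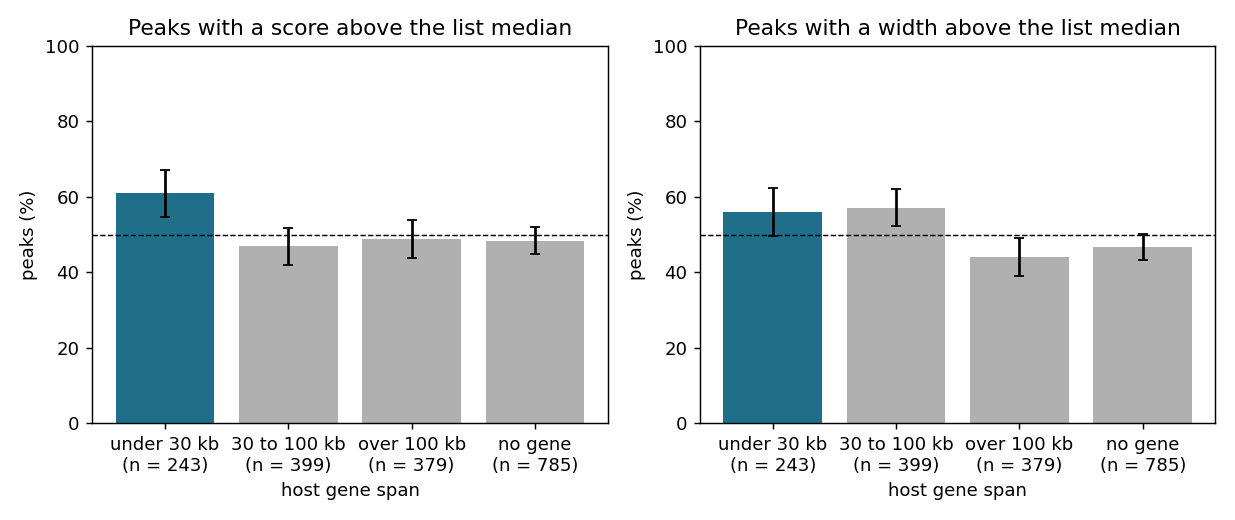
Share of H3K36me3 peaks above the list's median score (left) and median width (right), by the span of the host gene. Error bars are 95% intervals of the share by the normal approximation and the dashed line is 50%. Short genes stand at 60.9% for score, above the other classes, and at 56.0% for width, beside the 57.1% of genes of 30 to 100 kb.

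Among the 20 highest-scoring peaks, the first belonged to Mt1 (chromosome 8, 94179253 to 94180512) with a score of 82, followed by Hjurp with 58.3. Hjurp encodes the chaperone of the centromeric histone. Its peak, 9557 bp wide, was the widest of the 243. Next came Mterf3, a regulator of mitochondrial transcription (chromosome 13, 66924819 to 66925798, score 57.3), and Anxa7, an annexin (chromosome 14, 20471792 to 20472178), which had the same score as Nr0b1, 56.1. These 5 and Dnajc2, a chaperone that works at the ribosome (50.02), were the 6 hosts with scores over 50.

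Below them stood genes of varied function. Hamp2, of the hepcidin family, had a peak of score 49.9, Dclre1b, the telomere nuclease Apollo, 49.4, the kelch-family gene Klhl31 49.3 and the transcription factor gene Ets2 49.1. Zfp36, which encodes the mRNA-destabilising protein tristetraprolin, scored 46.4, and the double homeobox gene Duxf3 46.3. Eif2b1, a subunit of the guanine exchange factor of translation initiation, scored 45.2, and Zdhhc5, a palmitoyltransferase gene, 44.4. Prl2c2 (44.1) is a prolactin family member, Zbtb7a (44.0) a transcriptional repressor gene, Lman2 (43.9) a cargo lectin of the secretory pathway and Dnajb5 (43.9) a chaperone gene. Cmbl (43.9), a hydrolase gene, and Unc45a (43.8), a myosin chaperone gene, closed the first 20.

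The scores fell off quickly. In all, 39 of the 243 peaks scored over 40 and 56 scored under 32. At the lower end were Arfgap2, a regulator of vesicle coats (30), Fam204a (30.07), Dynll1, a dynein light chain gene, and Pttg1ip (both 30.1), and Hspa13, an HSP70 family member (30.2). Scores were often tied: 186 of these peaks had the same value as some other H3K36me3 peak.

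The gene limit of 30 kb cut through a continuous range of spans. The hosts just inside it were Cep78 (29.9 kb), Nbr1 (29.8 kb), Fam204a (29.6 kb), Cops4 and Pofut1 (both 29.5 kb), with scores of 30.07 to 39.8. Just outside it lay Stx12, Metap1, Trip10, which held 2 peaks, and Ano7, of 30.4 to 30.5 kb, with scores of 32.2 to 38.3.

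Most peaks covered a small part of their gene. The median share of the gene inside the peak was 3.69% (interquartile range 2.59 to 6.04%), and 37 peaks covered more than 10%. The Mt1 peak covered 74.4% of its 1.45 kb gene, the Duxf3 peak 56.8% of 3.59 kb and the Hjurp peak 50.9% of 18.8 kb. The shortest host was the olfactory receptor gene Olfr490 (0.945 kb, score 35.3), with 42.2% covered. After Mt1 came Hamp2 (1.81 kb, 28.6% covered), Alkbh7 (2.002 kb, 22.2%) and Mid1ip1 (2.34 kb, 20.1%). Zfp36 (2.45 kb) had 39.1% covered, the oxytocin gene Oxt (2.54 kb) 26.4% and the proteasome gene Psmb4 (2.64 kb) 20.5%. Pabpc1l2a (2.73 kb, 14.3%) and the ribosomal protein gene Rpl9 (3.07 kb, 22.7%) completed the 10 shortest. The highest and the lowest scores of the 10 were 82 in Mt1 and 30.3 in Pabpc1l2a.

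Only 4 hosts held 2 peaks each. In Prpf31, a spliceosome gene, they scored 39.5 and 36.9 and lay 2.78 kb apart, and in Dnajb5 they scored 43.9 and 30.5 and lay 4.54 kb apart. Mmadhc, a gene of cobalamin metabolism, held peaks of 36.2 and 31.0 separated by 1.31 kb. The peaks of the nuclear receptor gene Esrra (35.5 and 32.3) were 8 bp apart.

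Along the gene no end was favoured beyond counting error. Strand was known for 201 of the 243 peaks, and 104 of these (51.7%, exact interval 44.6 to 58.8%) had their midpoint in the 3′-proximal 50% of the span. In 5 equal segments from the 5′ end stood 41, 39, 45, 42 and 34 peaks. Longer genes had 47.9% of 616 peaks in the 3′-proximal part, 3.85 points fewer (interval of the difference -4.10 to 11.8; Fisher's exact test, two-sided, p = 0.372), so no difference was detected, with an interval that reaches 11.8 points. Within 1 kb of either gene end lay 46 of the 243 midpoints, against 47.1 if each midpoint were placed evenly in its own gene. Near the start, within 500 bp, there were 16 of 201 (7.96%, 4.62 to 12.6%) against 10.6. Near the end there were 7 (3.48%, 1.41 to 7.04%) against 10.6. The 1 kb windows gave 24 at the start and 15 at the end, against 21.2 for each.

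A promoter window was touched by 12 of these 201 peaks (5.97%, 3.12 to 10.2%), where even placement in the gene would give 11.1. The 12 hosts were Nr0b1, Duxf3, Dlx2, Sprr2a2, Rack1, Lpar2, Psmb4, Rpl9, Sco1, Oxt, Ap1s2 and Hnrnpab, with scores from 32.03 in Hnrnpab to 56.1 in Nr0b1.

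**Figure D3:**
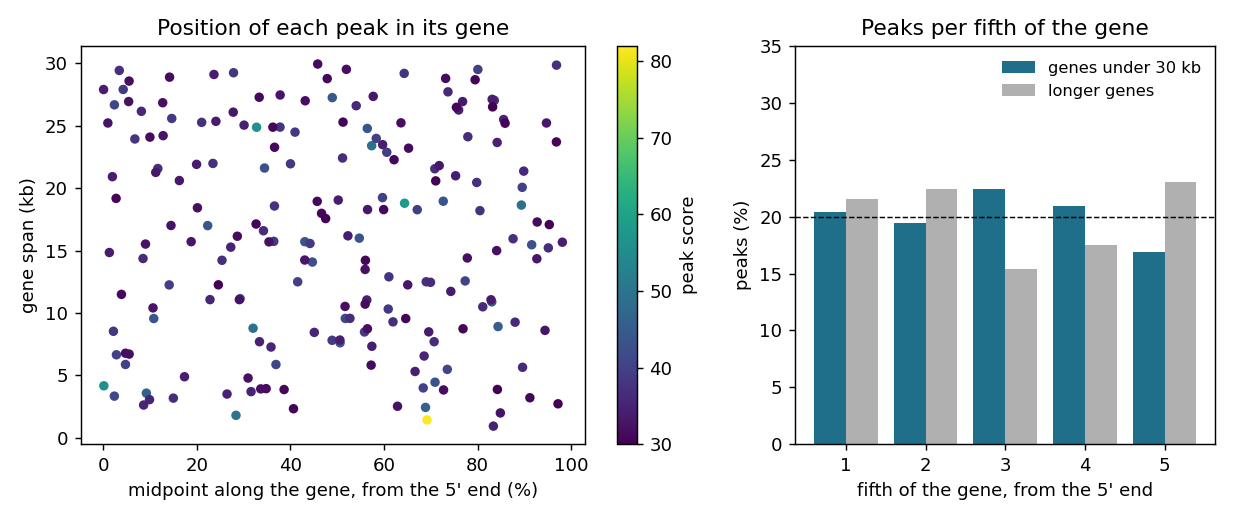
Left: position of each of the 201 midpoints with known strand along its gene (0% is the 5′ end) against gene span in kb, coloured by peak score. Right: percent of peaks in each of 5 equal segments, for genes under 30 kb (blue, 201 peaks) and longer genes (grey, 616 peaks), with a dashed line at 20%. The short genes hold between 34 and 45 peaks per segment.

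Genes of protein folding, splicing and translation were found among the hosts. The gene lists were chosen with earlier results of these data known, and their counts are descriptions beside the 1.67% of all short genes. Expected numbers take the class's peaks per kb over the summed span of each list. Of 55 short chaperone genes, 5 (9.09%) were hosts, with 1.04 expected: Dnajc2, Dnajb5, the mitochondrial chaperonin gene Hspd1 (score 32.7), the cytosolic chaperonin subunit Tcp1 (30.8) and Hspa13. Of 63 splicing genes 5 (7.94%) were hosts, with 1.34 expected. They were Prpf31, the U1 protein gene Snrpa (36.1), Hnrnpab (32.03), the splicing factor gene Srsf3 (31.5) and Hnrnpd (31.5). Of 54 translation factor genes 4 (7.41%) were, with 1.12 expected: Eif2b1, the RNA helicase gene Eif4a1 (40.8), the elongation factor gene Eef2 (40.5) and Eif3l (30.5). Of 32 proteasome genes 2 were, with 0.576 expected, Psma3 (35.8) and Psmb4 (35.4). Of 20 tRNA synthetase genes 2 were, with 0.492 expected, Tars (43.6) and Vars (39.6). Mars1 (38.6), whose symbol the list's pattern missed, was noticed after its value was seen.

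Other families held 1 or 2 hosts each. Ribosomal protein genes gave 2 of 87 (2.30%; 0.503 expected), Rplp2 (35.2) and Rpl9 (35.2). Mitochondrial ribosomal protein genes gave 2 of 71 (2.82%; 0.936 expected), Mrpl38 (42.4) and Mrpl3 (32.8). Respiratory chain genes gave 2 of 79 (2.53%; 1.06 expected), Ndufb3 (41.0) and Atp5j2 (34.5). Cell cycle and replication genes gave 1 of 43, Pola2 (30.6), a subunit of DNA polymerase alpha, with 0.975 expected. Of the 4 metallothionein genes 1 was a host, Mt1 (25%; 0.00925 expected). The histone list matched 7 short genes, of which 1, H2az2 (31.4), was a host (14.3%; 0.0635 expected); its pattern missed histone genes with newer symbols.

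Among the large families the shares ran from 0.213% to 4.26%. Of 305 short Zfp genes 13 (4.26%, exact interval 2.29 to 7.18%) were hosts, with 7.83 expected from their length. Zfp36 led them, followed by Zfp184 (38.6), Zfp91 (38), Zfp69 (36.8) and Zfp709 (36.4). Of 189 solute carrier genes 2 (1.06%) were hosts, with 4.72 expected: Slc33a1 (36.4), an acetyl-CoA transporter, and the bile acid transporter gene Slc10a1 (32.7). Of 170 Tmem genes only Tmem209 (31.1) was, with 2.86 expected. Olfactory and vomeronasal receptor genes, which are expressed in sensory neurons, gave 3 of 1410 (0.213%, 0.0439 to 0.621%), with 6.04 expected by summed span and 10.4 at the class rates of their length bins. They were Vmn2r18 (37.2), Olfr490 (35.3) and Vmn2r30 (30.6). Homeobox cluster genes gave 0 of 36, with 0.288 expected. Predicted genes with a Gm number were 4 of the hosts (1.67%) and 8.08% of the short class, with no allowance made for their length.

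**Figure D4:**
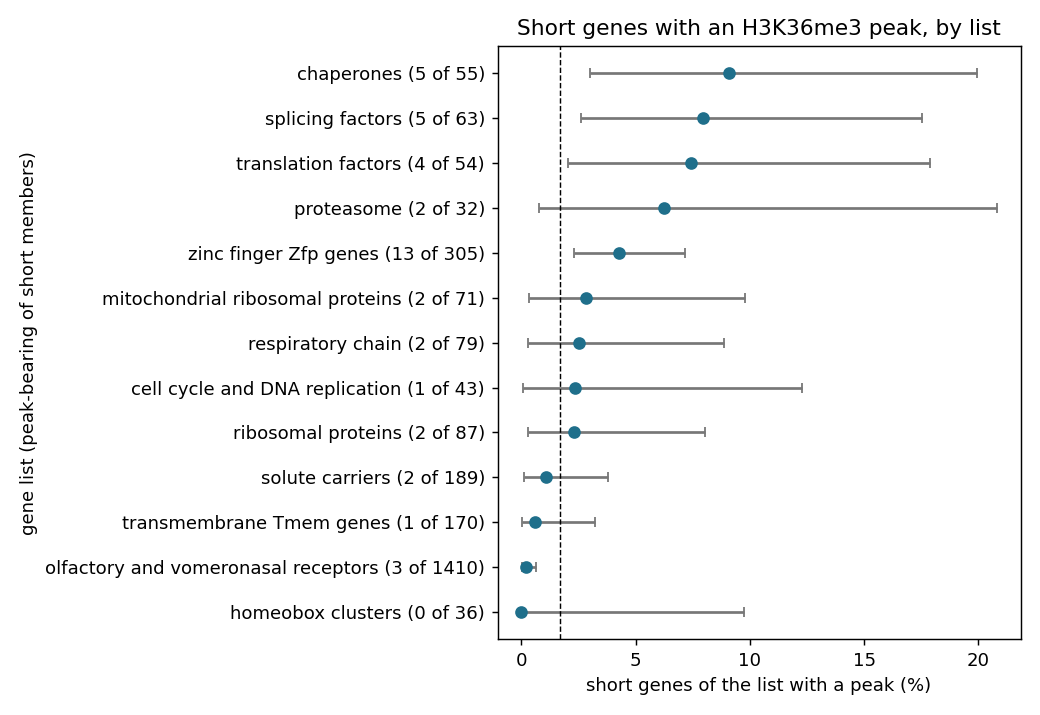
Percent of the short genes of each list that held an H3K36me3 peak, for the lists described here with at least 30 short genes. Points are shares, bars exact 95% intervals, and the dashed line is the 1.67% of all short genes. Chaperone, splicing and translation genes stand at 9.09%, 7.94% and 7.41%, and receptor genes at 0.213%.

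Markers of intestinal cell types were too few to check the tissue label. Among 10 short pan-epithelial genes 1 was a host, the keratin gene Krt19 (34.4; 0.152 expected), and among 11 crypt stem and progenitor genes 1, the proliferation gene Mki67 (40.5; 0.224 expected). The short enterocyte (16), goblet (8), Paneth (11) and enteroendocrine and tuft genes (13) gave 0, with at most 0.266 expected in any list. The lists for other cells also gave 0: 13 immune, 4 stromal and 18 genes of other tissues, with at most 0.216 expected. These lists hold chosen markers only, so the 0 does not show that no host marks other cells. Hosts outside the lists were not sorted by cell type, and include the oxytocin gene Oxt (32.6) and the bile acid transporter gene Slc10a1 (32.7). Among 8 short Wnt pathway genes the β-catenin gene Ctnnb1 (34.5) was a host, and among 8 short genes of H3K36 methylation none was.

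The promoters of the hosts were rich in CpG, as were those of longer hosts. The ratio of observed to expected CpG exceeded 0.6 in 139 of 198 host promoters (70.2%, exact interval 63.3 to 76.5%). It did so in 40.2% of the 11375 promoters of other short genes and in 68.9% of the 566 promoters of longer hosts. Among longer genes without a peak, 3355 of 5352 promoters exceeded it. These groups were not matched for gene length. One promoter was taken for each gene, the one nearest to the 5′ end of its span.

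The ETS-type motif CCGGAAG was more frequent in the promoters of short hosts than in those of longer hosts. ETS factors are a large family of transcription factors, and this motif is common in promoters of housekeeping genes. It was present on either strand in 58 of the 198 short-host promoters (29.3%, 23.1 to 36.2%) and in 73 of the 566 longer-host promoters (12.9%). The difference was 16.4 points (9.48 to 23.3; Fisher's exact test, two-sided, adjusted p = 3.83e-06 over the 7 motifs). The test was chosen after the shares had been seen. Other short genes had the motif in 11.7% of promoters and all protein-coding genes in 11.9%. Among the 12 hosts whose peak touched the window it was present in 2 (16.7%).

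The motif was more frequent in promoters with a CpG ratio over 0.6, a class about equally common in short (70.2%) and longer hosts (68.9%). Within promoters whose CpG ratio exceeded 0.6, the motif was present in 38.1% of 139 short hosts (30.03 to 46.7%), 22.9% of 4573 other short genes, 15.4% of 390 longer hosts and 15.7% of 3355 other longer genes. In promoters with a lower CpG ratio it was present in 5 of 59 short hosts (8.47%), 4.22% of other short genes and 7.39% of longer hosts. The stretches printed above show where it lay. The motif began 42 bases before the annotated start in Hjurp, 92 in Zfp36, 44 in Zfp184 and in the printed copy of Emg1, 29 in Mars1 and 2 in Exosc3 and Tstd2. In Ccdc181 it began at the start itself. A match describes the letters of the window, and no binding was measured.

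**Figure D5:**
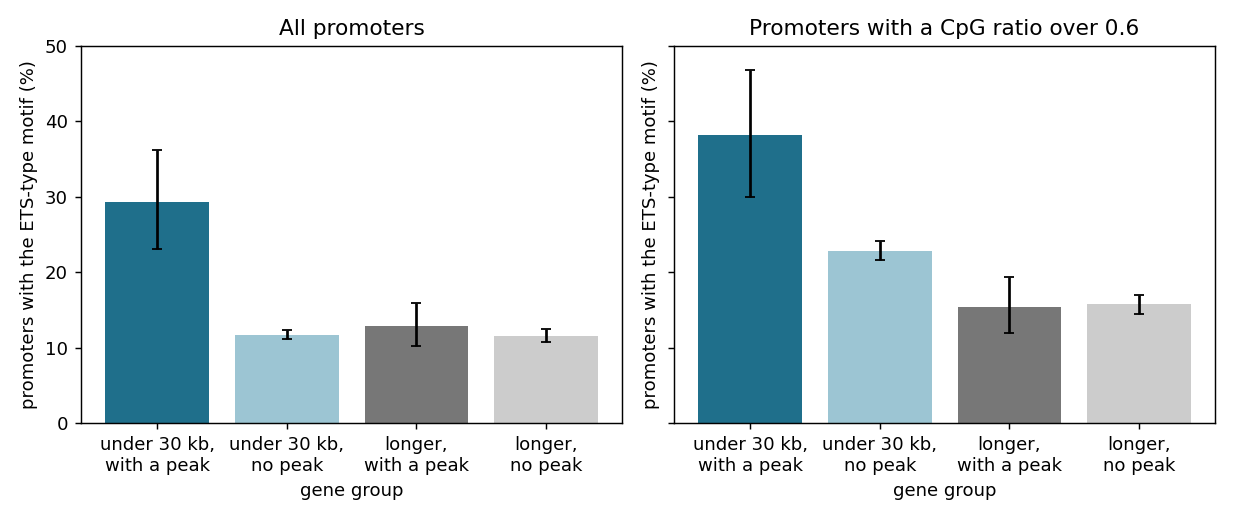
Percent of promoters that hold the ETS-type motif, in genes under 30 kb and longer genes with and without an H3K36me3 peak, for all promoters (left) and for those with a CpG ratio over 0.6 (right). Error bars are exact 95% intervals. Short genes with a peak stand at 29.3% and 38.1%, above the other 3 groups in each panel.

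None of the other 6 motifs passed the test between short and longer hosts after adjustment. The GC box GGGCGG was present in 55.6% of short-host and 64.5% of longer-host promoters (interval of the difference -16.9 to -0.967 points; Fisher's exact test, adjusted p = 0.0633). CCAAT was present in 43.4% and 34.1% (1.40 to 17.3 points; exact test, adjusted p = 0.0633), and TATAAA in 9.60% and 6.71% (-1.71 to 7.47 points; adjusted p = 0.292). The loose motif TGCNCNC was found in 54.0% and 60.4% (-14.4 to 1.64 points, exact test, adjusted p = 0.229). The shares were 4.55% and 5.65% for AAGATGG, and 3.03% and 3.71% for TGACGTCA (exact test, adjusted p = 0.824 for both). Over all protein-coding genes with a promoter sequence the shares were 46.3% for the GC box, 39.2% for CCAAT and 13.3% for TATAAA. They were 53.04% for TGCNCNC, 6.35% for AAGATGG and 2.33% for TGACGTCA. The Mt1 window held 3 GC boxes and 3 matches to TGCNCNC.

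No H3K36me3 peak in a short gene overlapped a SETD2 peak. The count was 0 of 243, which allows a share of up to 1.51% (exact interval). Overlap was rare in the other classes too, so the count of 0 does not set short genes apart. It was seen for 1 of 399 peaks in genes of 30 to 100 kb and 1 of 379 in genes over 100 kb. Outside genes, 5 of 785 peaks overlapped a SETD2 peak. For the 243 peaks in short genes, the median distance to the nearest of the 186 SETD2 peaks was 5682 kb. Of the 243 peaks, 1 lay within 10 kb of a SETD2 peak and 5 within 100 kb. The nearest was in Gm2808 (chromosome 17, 6534021 to 6535088, score 32.3), a predicted gene whose SETD2 peak (6527811 to 6529352, score 36.4) was 4.67 kb away. Trim27 (68.7 kb), Pef1 (69.5 kb), Dcaf4 (83.7 kb) and Dynlt1b (92.5 kb) followed. Of the SETD2 peaks 9 (4.84%, 2.24 to 8.99%) had their midpoint in a short gene, against 5.40% expected from even placement, and Gm2808 was the gene of these that also hosted an H3K36me3 peak. The other 8 were Nrbf2, Glod4, Fbxw14, Mdm2, Meaf6, Thnsl2, Hao2 and Ulbp1.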

How the data were processed

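The authors deposited 1 peak list for each ChIP (H3K36me3 and SETD2), each peak with start, end and a score of unstated scale. The peaks carry MACS names and, per the deposited lists' titles, had the input as control. Per the submitters' processing notes, CASAVA 1.8 was used and the build was hg19, a human one, which cannot hold for mouse. No mouse build is named there. Coordinates were read as GRCm38, on which the peaks met genes more often in place than when moved by a few kb, and are given from 1. Exons and introns were not analysed here. The sources used here do not name an aligner or the peak filters. The positions (start and end columns) and scores were used as deposited.

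Genes came from a RefSeq table of GRCm38.p6. Genes starting below 3 Mb (not on Y) were dropped as patch scaffolds, which left 49599 genes, of which 21775 are protein-coding. Strand was taken from the RefSeq promoter table. Even placement was computed exactly from gene spans, between the outermost gene or peak of each chromosome, in place of shuffling, and the whole class of short genes in place of randomly drawn ones. Intervals are 95%. Fisher's exact tests (scipy 1.17.1, Python 3.11.15) were adjusted by Benjamini-Hochberg within each measure, with a threshold of 0.05. Procedures were tested on simulated data.

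The peaks, the 28 gene lists and the motifs were chosen with earlier results of these data known. Genes were named by rule: the 20 highest and 5 lowest scores, hosts of 2 peaks, the 10 shortest and 5 longest, peaks covering most of a gene, those near or in SETD2 peaks, and up to 5 hosts per list. The result of 1 list is not reported here. Alternatives were other limits, a score cut, another host choice, autosomes, pseudogene-poor regions and any overlap.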

Additional observations from a re-analysis of the deposited data

How the results depend on the processing

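With 1 library per antibody, no replicate could be left out, and read depth is unknown. No paired analysis was possible because each group holds 1 library. Of 41 recomputed summary values, 30 kept their direction and side of the threshold, or stayed within their interval. When the lower-scoring peaks (under the median) were left out, the ratio of observed to even placement rose from 2.35 to 2.84, and 1.03% of short genes were hosts. With a limit of 20 kb that share was 1.23%, and with 40 kb 2.01%, against 1.67%. At the upper quartile the score differences from genes over 100 kb and from no gene were 7.27 and 5.93 points, and the width differences 6.43 and 2.80 points, none of which passed the threshold. The width difference from genes of 30 to 100 kb, which did not pass, turned from -1.18 to 2.20 points with the limit of 20 kb. A gap of up to 10 kb gave 1 peak beside a SETD2 peak in place of 0. Among hosts with a peak on the promoter window, 50% had a CpG ratio over 0.6 in place of 70.2%, which rests on 12 genes. The causes of these changes were not tested. Of 36 recomputed values for single motifs and gene lists, 30 kept and 6 moved, all 6 for promoter motifs. The CpG split of the motif was chosen after seeing the data. Regions with 10 or more pseudogenes within 500 kb held 33 of the 243 peaks, where reads may not be assignable to 1 copy. Among these peaks were those of Mterf3, Nr0b1 and Prl2c2, of the 20 highest scores, and those of Gm2808 and Dynlt1b. The count takes in annotated pseudogenes only, and repeated protein-coding genes were not screened. The 2 peaks wider than 2 kb, in Hjurp and Duxf3, lay outside those regions (8 and 3 pseudogenes within 500 kb). Leaving those regions out gave a ratio of 2.40 and kept the calls of the Fisher tests on score, width and position along the gene; the motif tests were not rerun without them.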

Other observations

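Small non-coding genes lie inside several hosts. Peaks touched an annotated small nucleolar RNA gene in 4 hosts: Snord37 in the elongation factor gene Eef2, Snora52 in Rplp2, Snora20 in Tcp1 and an unnamed one in Rack1. Many such RNAs are cut from introns of other genes, among them genes that serve translation and protein folding. Long non-coding RNA genes were touched by 11 of the 243 peaks, among them both peaks of Prpf31, and a microRNA gene by 0. Counts for the other H3K36me3 peaks and for short genes without a peak are not given here. No excess can therefore be read from these numbers. Chromosome 7 held the most, 25, and Y held 2 H3K36me3 peaks but 0 in short genes. Per Mb of short-gene ground, chromosome 12 had the most peaks (2.75) and chromosome 9 the fewest apart from Y (0.998), with 11 and 8 peaks. No test was made of these counts.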
